A study of Mus musculus with 15 samples.

Results

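The constitutive proteasome subunits are the genes that encode the standing 26S proteasome of a cell and the caps that open it. They were taken as the genes whose symbol starts with Psma, Psmb, Psmc, Psmd or Psme and ends in a number, without the immunoproteasome subunits Psmb8, Psmb9 and Psmb10, and with a mean of at least 1 CPM (counts scaled to a fixed library total) over the 15 libraries. The pattern matched 40 of 54532 genes in the table, and 39 of them passed the minimum. The minimum used the mean level alone. Just outside it was Psmb11, the thymus-specific catalytic subunit, with a mean of 0.136 CPM. Just inside it was Psma8, the testis-enriched relative of Psma7, with 1.03 CPM, and the next member was Psme2 with 13.8 CPM. Psma8 averaged 1.36 CPM in NYKD, 1.43 CPM in ICH and 0.311 CPM in sham brains, so it reached the minimum through the NYKD and ICH groups. Its difference from sham is therefore given as a description and counts for nothing else. All 39 members also passed the expression filter used for testing. The members were thus selected on their symbol and on the mean CPM over all 15 libraries.

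The proteasome degrades proteins that carry ubiquitin chains. Its 20S core is a barrel of stacked rings, in which the alpha subunits (Psma genes) form the outer rings and gate the entrance, and the beta subunits (Psmb genes) form the inner rings and hold the proteolytic sites. The 19S regulatory particle binds the ubiquitin chain, removes it and unfolds the protein. Its base is built around a ring of ATPases (Psmc genes), and its lid carries the deubiquitinase Psmd14. Other caps, encoded by Psme1 to Psme4, can bind the same end of the barrel without ATP. Inflammatory cytokines, interferon gamma above all, are known to induce Psme1, Psme2 and the immunoproteasome subunits, whereas the transcription factor Nfe2l1 drives the standing subunits when proteasome capacity falls short.

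The series measured poly-A RNA, in wild-type mice (genotype WT), in the ipsilateral basal ganglia on day 3 after surgery, in 3 groups of 5 libraries. NYKD mice had an intracerebral haemorrhage and received the powder of Nao Yi Kang decoction in distilled water by gavage, at 5.79 g/kg once a day for 3 days. ICH mice had the haemorrhage and were gavaged with distilled water. Sham mice had sham surgery and the same water gavage. The sources used here give neither the strain, sex and age of the mice nor the way the haemorrhage was made, nor the meaning of the M in NYKD-M, the design text's name for the treated group. Libraries held 13539203 to 19909140 counts, with the lowest total in ICH 4 and the highest in sham 5. The members took 0.282% to 0.327% of all counts in NYKD libraries, 0.279% to 0.367% in ICH libraries and 0.260% to 0.337% in sham libraries. All 6 pan-neuronal markers and all 6 striatal projection neuron markers listed for this tissue were detected in every group. Their summed levels varied between libraries of 1 group, and for the striatal markers ran over 106 to 1477 CPM in NYKD, 531 to 3383 CPM in ICH and 656 to 4265 CPM in sham libraries.

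Levels of the members were compared between genes only per kilobase of the longest principal transcript (GENCODE M21). On that scale the members of the 20S and 19S particles were abundant in sham brains. The ATPase Psmc5 had the highest mean level, 124 ± 28 CPM per kilobase (SD, n = 5), followed by the catalytic subunit Psmb6 with 114 ± 20 and the structural subunit Psmb4 with 110.4 ± 23.2. The 3 chaperones that assemble the 19S base were far lower, with sham means of 12.5 CPM per kilobase for Psmd10, 12.3 for Psmd5 and 11.9 for Psmd9. Among the caps, Psme3 averaged 34.9 CPM per kilobase in sham brains, Psme1 26.6, Psme2 10.7 and Psme4 9.82. Psma8 averaged 0.193 CPM per kilobase. The within-group SD of the log2 level had a median of 0.194 over the 39 members. The median was 0.279 over the 11127 tested genes with a mean of at least 10 CPM, and 0.349 over all tested genes. These genes were not matched to the members by level, so the lower SD is not shown to be particular to the members. Among the members the SD was lowest for the lid subunit Psmd11 (0.0846) and highest for Psma8 (0.385).

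A RefSeq promoter window, from 250 bases before the start site to 50 after it, was available for 32 of the 39 members. The ETS core CCGGAAG, or its reverse complement CTTCCGG, lay in the windows of 10 of 28 core subunit and chaperone genes (35.7%), against 9.9% of all 27025 genes with a window. The GC box GGGCGG, or CCGCCC on the other strand, lay in 18 of the 28 (64.3%), against 38.2% of all genes. The 2 motifs shared a base in the window of Psme4 and of no other member. The NF-Y box CCAAT lay in 11 of 28 (39.3%) against 41.1% of all genes, and the antioxidant response element core TGACNNNGC, to which Nfe2l1 and Nfe2l2 bind, in 5 of 28 (17.9%) against 14.0%. All searches used both strands. A match describes these letters and is not shown to be a bound site. The stretches below end just before the most upstream annotated start and show the ETS core and GC box in capitals. Psmd11 is shown because it was called between NYKD and sham brains, Psmd2 and Psmc2 as further 19S genes with the ETS core, and Psme2 as a cap gene called between ICH and sham brains whose windows hold GC boxes and no ETS core. Positions are RefSeq, build GRCm38.p6: Psmd11 at chr11:80428465-80428614, Psmd2 at chr16:20651502-20651651 and Psmc2 at chr5:21785125-21785274, all on the plus strand, and Psme2 at chr14:55591114-55591263 on the minus strand.
Psmd11: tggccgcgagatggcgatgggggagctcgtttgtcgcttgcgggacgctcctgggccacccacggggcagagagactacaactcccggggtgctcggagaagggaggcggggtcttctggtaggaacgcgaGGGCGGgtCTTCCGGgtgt
Psmd2: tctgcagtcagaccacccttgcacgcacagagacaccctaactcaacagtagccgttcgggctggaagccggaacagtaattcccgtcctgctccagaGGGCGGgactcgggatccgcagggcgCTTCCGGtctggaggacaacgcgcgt
Psmc2: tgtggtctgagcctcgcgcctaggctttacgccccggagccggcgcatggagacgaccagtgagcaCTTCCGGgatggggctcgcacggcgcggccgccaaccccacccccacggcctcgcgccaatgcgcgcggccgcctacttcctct
Psme2: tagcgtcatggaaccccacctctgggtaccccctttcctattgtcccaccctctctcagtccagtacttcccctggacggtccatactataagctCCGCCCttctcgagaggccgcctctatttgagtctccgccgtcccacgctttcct

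A further motif, the core of the interferon-stimulated response element, was searched on both strands after the expression values were seen. It lay in the windows of 3 of 28 core genes (10.7%) and of Psme1, against 4.0% of all genes. In Psme1 the match started 9 bases after the RefSeq start, on the opposite strand, and is shown in capitals within 30 bases at chr14:55578493-55578522. That start lies 371 bases inside the gene as GENCODE draws it.
Psme1: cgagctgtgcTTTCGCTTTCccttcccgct

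The first comparison, ICH against sham, asks what the haemorrhage did to proteasome transcripts by day 3. Of the 4 cap genes 3 were higher in ICH brains, whereas none of the 34 core subunits and chaperones passed the test in either direction. Called means a Benjamini-Hochberg adjusted p under 0.05 in edgeR's quasi-likelihood test, adjusted over all 18052 tested genes. Of the 38 members other than Psma8, 3 were called higher (Psme1, Psme2 and Psme4) and none lower. Over all genes 17.0% were called, 12.4% higher and 4.58% lower, so the members' count lay below the background share. No member had ICH and sham libraries that did not overlap, against 8.03% of all genes that were higher without overlap and 3.25% that were lower. The median log2 fold change was 0.002 over the 38 members and 0.05 over all genes. The median absolute log2 fold change was 0.14 over the 34 core genes and 0.34 over all genes.

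**Figure D1:**
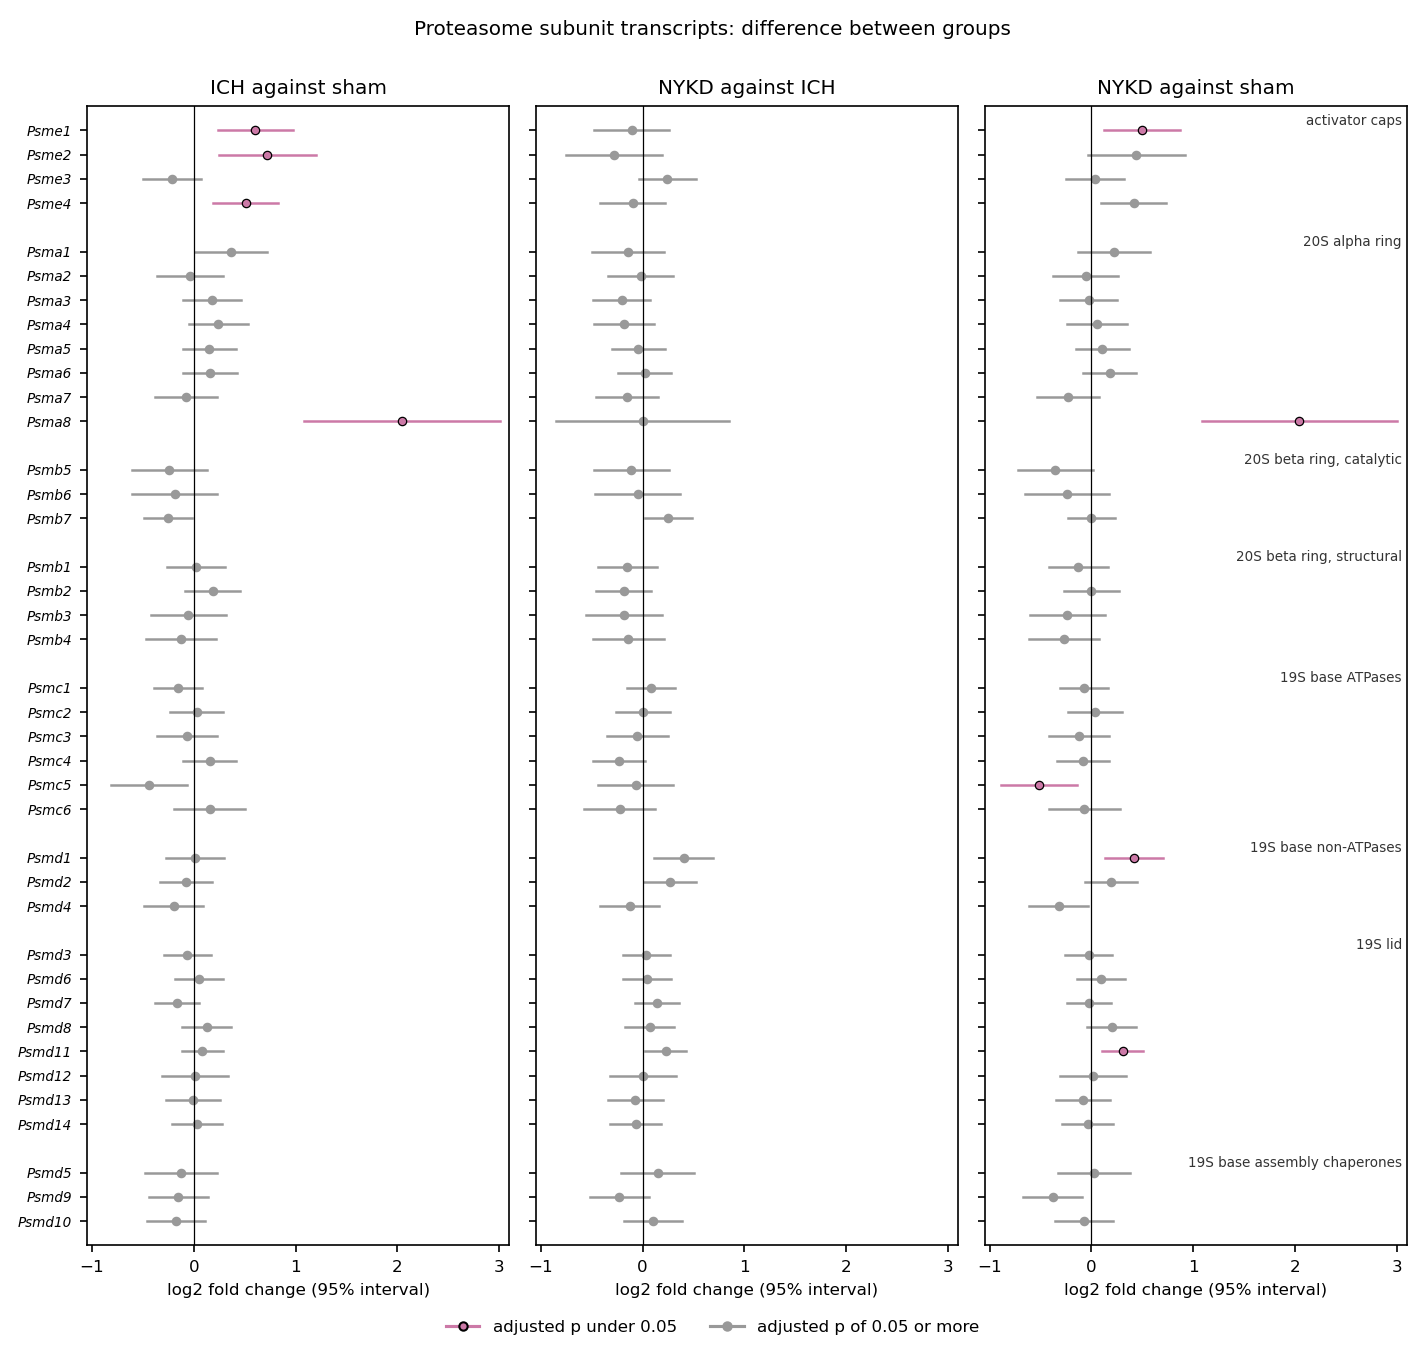
Log2 fold change (x axis) with its 95% interval for each of the 39 members (rows, by role), with 1 panel per comparison of the ICH, sham and NYKD groups; pink points with a black edge had an adjusted p under 0.05. In ICH against sham brains the called members were 3 of the 4 activator caps and Psma8, and none of the 39 was called in NYKD against ICH brains.

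Psme1 (chr14:55578123-55581529, plus strand, GRCm38) and Psme2 (chr14:55587441-55591113, minus strand) encode the alpha and beta subunits of PA28, the cap known for its part in making peptides for MHC class I. In the 5 NYKD libraries Psme1 had 42.5, 39.8, 39.5, 36.2 and 50.3 TMM-scaled CPM, in the ICH libraries 36.0, 60.4, 52.0, 38.2 and 37.9, and in the sham libraries 39.7, 30.7, 28.3, 22.3 and 26.7. Sham 1 stood above 3 of the ICH libraries, and the other 4 sham libraries lay below all 5 ICH libraries. The log2 fold change in ICH against sham brains was 0.60 ± 0.17 (adjusted p = 0.0255), where ± after a log2 fold change is an approximate standard error. Psme2 had 15.2, 11.3, 16.7, 10.3 and 16.2 CPM in NYKD, 10.0, 22.4, 19.8, 17.7 and 14.8 CPM in ICH, and 12.6, 10.0, 6.66, 10.7 and 11.3 CPM in sham libraries. ICH 1 lay within the sham range, and the other 4 ICH libraries lay above it. The Psme2 difference was 0.72 ± 0.23 (adjusted p = 0.0363). Psme2 has a near copy, Psme2b, which held 193 counts per library on average, so the split of reads between them is uncertain. With the counts of both genes summed, an alternative added after the data were seen, the log2 fold change was 0.64 (adjusted p = 0.0416).

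Psme4 encodes PA200, a single-chain cap found largely in the nucleus. It had 73.7, 99.4, 83.6, 85.8 and 82.2 CPM in NYKD libraries, 110.5, 69.9, 106, 84.8 and 82.9 CPM in ICH libraries, and 62.1, 70.4, 63.1, 76.3 and 46.9 CPM in sham libraries. ICH 2 was the 1 ICH library inside the sham range. In ICH against sham brains Psme4 rose by 0.51 ± 0.15 (adjusted p = 0.0288). Psme3, the nuclear PA28 gamma cap, was not called. Its libraries overlapped, with 95.3, 83.9, 94.1, 106 and 96.4 CPM in NYKD, 91.2, 68.9, 82.8, 83.0 and 76.0 CPM in ICH and 83.4, 76.3, 85.7, 95.7 and 124 CPM in sham libraries, and its log2 fold change in ICH against sham brains was -0.21 ± 0.13 (adjusted p = 0.306). The 3 cap calls were near the threshold. The Psme1 call was lost without ICH 2, ICH 3, sham 3, sham 4 or sham 5 (adjusted p = 0.0661 to 0.0791), the Psme2 call without ICH 2, ICH 3, ICH 4, sham 2, sham 3, sham 4 or sham 5 (0.052 to 0.0984), and the Psme4 call without ICH 1, ICH 3, sham 3 or sham 5 (0.0641 to 0.0971). With the ICH and sham libraries fitted alone, none of the 3 was called (adjusted p = 0.0635 for Psme1, 0.0652 for Psme2 and 0.0724 for Psme4).

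**Figure D2:**
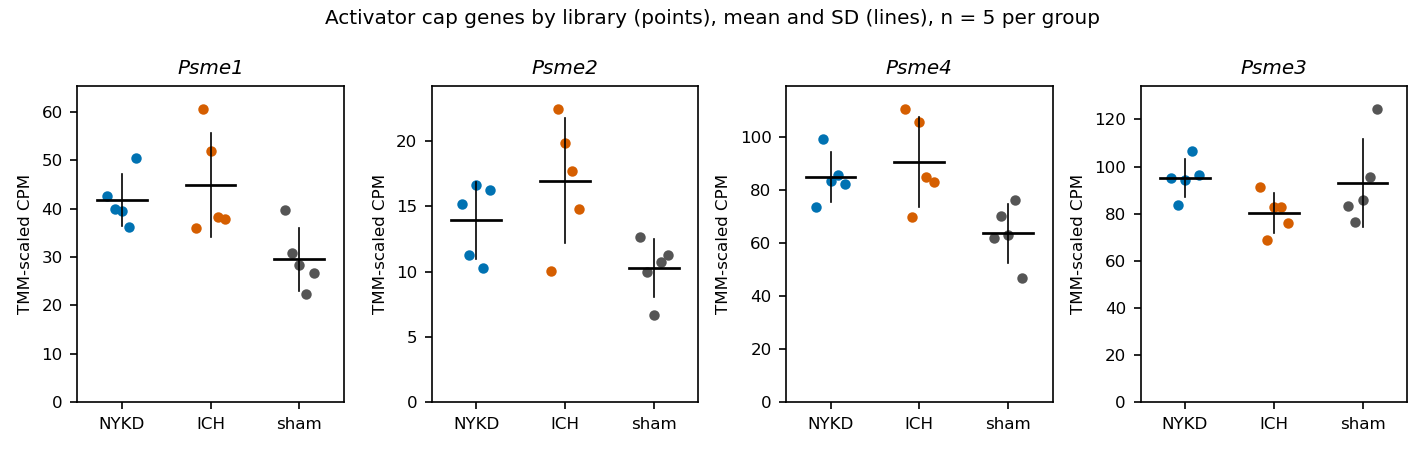
TMM-scaled CPM (y axis, from 0) of the 4 activator cap genes in each NYKD, ICH and sham library (points, 5 per group), with the mean (horizontal line) and SD (vertical line). The groups overlap for all 4 genes: 4 of 5 ICH libraries lie above all sham libraries for Psme2 and for Psme4, and 2 of 5 for Psme1, where sham 1 lies above the other 3.

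Marker levels of other cell types moved with the same groups. All 5 monocyte and macrophage markers were called higher in ICH than in sham brains, as were 3 of 5 microglia markers, all 6 reactive astrocyte markers, all 4 dividing cell markers, all 5 tested neutrophil markers and 3 of 4 endothelial markers. In the other direction, 1 of 5 oligodendrocyte markers, 1 of 5 erythroid markers and 2 of 6 pan-neuronal markers were called lower. The summed macrophage markers ran over 374 to 1467 CPM in ICH and 24.3 to 213 CPM in sham libraries, and the summed pan-neuronal markers over 2103 to 2408 CPM in ICH and 3036 to 3941 CPM in sham libraries. No marker list had a gene at 0 in any group. The part of these cells in the cap differences was not tested. In bulk tissue, more cells of a type and more RNA per cell cannot be told apart.

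The proteolytic sites sit on Psmb6 (caspase-like), Psmb7 (trypsin-like) and Psmb5 (chymotrypsin-like). All 3 had negative log2 fold changes in ICH against sham brains, and none was called. Psmb5 had 49.1, 44.1, 55.8, 44.7 and 57.2 CPM in NYKD, 37.4, 73.5, 49.7, 57.8 and 52.9 CPM in ICH, and 71.3, 62.1, 64.1, 44.6 and 78.8 CPM in sham libraries. ICH 1 was the lowest of the 15 libraries and ICH 2 the second highest. In Psmb6 ICH 1 was again the lowest and ICH 2 was the highest, with 77.2, 71.2, 83.6, 65.6 and 89.3 CPM in NYKD, 47.5, 119, 68.9, 87.8 and 77.1 CPM in ICH, and 97.4, 97.1, 89.4, 65.4 and 107 CPM in sham libraries. Its spread within the ICH group exceeded the distance between groups. Psmb7 had 59.7, 54.8, 55.4, 59.3 and 54.2 CPM in NYKD, 40.6, 55.1, 43.5, 52.1 and 46.5 CPM in ICH, and 58.7, 58.6, 62.6, 49.5 and 54.1 CPM in sham libraries. Of these 3 genes it came nearest to a call, with -0.25 ± 0.11 (unadjusted p = 0.0349, adjusted p = 0.127). Psmb5 differed by -0.24 ± 0.17 and Psmb6 by -0.19 ± 0.20 (adjusted p = 0.367 and 0.544). Exons of Psmb7 share 405 bases with Nek6 on the opposite strand, and whether reads were counted by strand is not stated in these sources. Nek6 was called higher in ICH than in sham brains, with 1.57 ± 0.15 (adjusted p = 1.42e-05).

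No structural ring subunit was called. The 4 structural beta subunits had log2 fold changes of -0.13 to 0.19 in ICH against sham brains, with the smallest adjusted p at 0.35. Of the 7 alpha subunits other than Psma8, 5 were above 0 and none was called. The largest was Psma1, an alpha subunit with 75.9, 76.4, 74.7, 89.3 and 83.4 CPM in NYKD, 85.4, 97.1, 122, 70.2 and 66.3 CPM in ICH and 85.0, 67.8, 77.0, 52.4 and 60.9 CPM in sham libraries. ICH 3 was the highest of the 15 libraries, and the difference was 0.36 ± 0.17 (unadjusted p = 0.0442, adjusted p = 0.148). Psma7 had 69.2, 55.5, 59.3, 57.7 and 67.0 CPM in NYKD, 48.9, 85.7, 68.6, 77.1 and 63.2 CPM in ICH and 81.5, 71.2, 77.2, 57.6 and 74.4 CPM in sham libraries. The ICH libraries spanned the sham range on both sides (-0.08 ± 0.14, adjusted p = 0.764). Psma8 had 0.885, 1.48, 1.73, 1.22 and 1.59 CPM in NYKD, 1.53, 1.57, 1.89, 0.495 and 1.39 CPM in ICH and 0.247, 0.171, 0.448, 0.132 and 0.639 CPM in sham libraries. It was near the CPM minimum throughout, and its log2 fold change of 2.05 ± 0.46 in ICH against sham brains is a description, as stated above.

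In the 19S particle the largest difference between ICH and sham brains was in the ATPase Psmc5. It had 134, 101, 125, 102 and 112 CPM in NYKD, 85.5, 163, 124, 117 and 111 CPM in ICH, and 173, 150.3, 152, 122 and 220.4 CPM in sham libraries. ICH 2 lay among the sham libraries, and the other ICH libraries lay at or below the lower end of the sham range. The difference was -0.44 ± 0.18 (unadjusted p = 0.0229, adjusted p = 0.0953), and without ICH 2 it was called (-0.58, adjusted p = 0.0322). The other 5 ATPases lay between -0.16 and 0.16. Psmc4 had 71.4, 68.6, 82.1, 75.8 and 73.1 CPM in NYKD, 65.9, 97.8, 98.4, 90.6 and 83.7 CPM in ICH and 88.7, 74.1, 75.9, 70.4 and 83.2 CPM in sham libraries, and differed by 0.15 ± 0.12 on the log2 scale (adjusted p = 0.416). The 8 lid subunits lay between -0.16 and 0.13. Their deubiquitinase Psmd14 had 70.2, 63.0, 66.6, 82.0 and 67.1 CPM in NYKD, 75.8, 73.3, 83.6, 72.2 and 61.4 CPM in ICH and 75.2, 71.4, 75.8, 58.5 and 77.4 CPM in sham libraries, and the groups overlapped (0.03 ± 0.12, 95% interval -0.22 to 0.28). Psmd7, the partner of Psmd14 in the lid, was the lid gene with the smallest p. It had 88.1, 81.3, 94.8, 85.0 and 94.1 CPM in NYKD, 75.8, 84.8, 80.1, 82.8 and 79.3 CPM in ICH and 84.7, 81.3, 89.0, 89.7 and 107 CPM in sham libraries (-0.16 ± 0.10, adjusted p = 0.295). The 3 chaperones lay between -0.17 and -0.12, and none was called.

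Over the 34 core genes, edgeR and limma-voom called 0 between ICH and sham brains. DESeq2 called 2 of them lower (Psmb7 and Psmc5), against 8.62% of all genes called lower by DESeq2. In edgeR 3 core genes had an unadjusted p under 0.05, which 31.1% of all genes had. The core log2 fold changes ran from -0.44 to 0.36, with a median of -0.02. An offset for GC content and transcript length changed this picture. It moved the median of all genes by -0.13, to -0.09, and the core median to -0.25, which is -0.16 relative to all genes, against -0.07 without the offset. Under it 7 members were called lower in ICH than in sham brains, namely Psmb7, Psmc1, Psmc5, Psmd4, Psmd7, Psmd10 and Psme3, against 13.3% of all genes called lower under the same offset, while Psme1 and Psme4 stayed called higher and Psme2 did not (0.50, adjusted p = 0.0779). Across the 34 core genes the log2 fold change in ICH against sham brains had a Spearman correlation of -0.442 with GC content, and across 18037 genes -0.0933. The genes are not independent replicates.

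The second comparison, NYKD against ICH, asks what the decoction changed after the haemorrhage. No member was called by edgeR, against 3.46% of all genes (1.19% higher, 2.27% lower). That share depended on single libraries: 0 genes were called without NYKD 1, NYKD 3, NYKD 5 or ICH 5, and 1 without ICH 4. With the replicate number as a block, or at an adjusted p under 0.01, 0 genes were called. DESeq2 called 1 member higher, Psmd1, against 10.2% of all genes called by DESeq2 (4.48% higher). Limma-voom called 0 members, against 2.14% of all genes. At an unadjusted p under 0.05, 4 members were higher in NYKD than in ICH brains (Psmd1, Psmd11, Psmb7 and Psmd2) and none was lower, where 23.2% of all genes passed in either direction. NYKD and ICH libraries did not overlap for Psmd1 and Psmd11, both higher in NYKD, against 2.55% of all genes that were higher and 5.25% that were lower. The median log2 fold change was -0.05 over the members and -0.01 over all genes. The ICH libraries enter both this comparison and the first, so the values of the 2 comparisons are not independent.

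Psmd1 and Psmd2 are the large scaffold subunits of the 19S base, and Psmd11 is a lid subunit that clamps the lid to the 20S barrel. Psmd1 had 125.8, 122, 123, 154 and 132 CPM in NYKD, 115, 105, 108, 86.4 and 82.5 CPM in ICH, and 91.1, 83.9, 95.2, 96.2 and 126.4 CPM in sham libraries. All 5 NYKD libraries lay above all ICH libraries, and sham 5 was the 1 sham library at the NYKD level. The log2 fold change in NYKD against ICH brains was 0.40 ± 0.14 (adjusted p = 0.0921). Psmd11 had 62.9, 66.5, 66.2, 68.5 and 69.7 CPM in NYKD, 55.8, 56.5, 57.7, 61.6 and 53.7 CPM in ICH, and 55.2, 56.6, 46.6, 55.4 and 55.7 CPM in sham libraries. The NYKD libraries lay above all ICH and all sham libraries. The difference from ICH was 0.23 ± 0.09 (adjusted p = 0.162). Psmd2 had 236, 234, 274, 260.3 and 281 CPM in NYKD, 221, 208, 203, 238 and 199 CPM in ICH, and 209, 203, 219, 215 and 279.6 CPM in sham libraries. ICH 4 reached the 2 lowest NYKD libraries, and the difference was 0.27 ± 0.12 (adjusted p = 0.195). Psmb7, whose values stand above, had 0.25 ± 0.11 in NYKD against ICH brains (adjusted p = 0.18), and NYKD and sham libraries had nearly equal means of 56.7 CPM.

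Most 20S genes had negative values, and none was called. Of the 14 without Psma8, 12 had a negative log2 fold change in NYKD against ICH brains. The 14 had a range of -0.21 to 0.25 and a median of -0.14, beside -0.01 for all genes. The smallest adjusted p among those 12 was 0.369, for Psma3. That alpha subunit had 60.8, 64.9, 63.1, 74.2 and 63.1 CPM in NYKD, 81.3, 83.5, 87.6, 67.0 and 57.0 CPM in ICH, and 80.2, 66.0, 68.3, 56.5 and 61.6 CPM in sham libraries. ICH 1, ICH 2 and ICH 3 were high and ICH 5 was the lowest of the ICH group, and the difference was -0.21 ± 0.13. Psmb2, a structural beta subunit, had 39.2, 43.7, 45.0, 54.8 and 47.6 CPM in NYKD, 48.5, 61.7, 57.3, 48.98 and 45.7 CPM in ICH, and 55.9, 45.6, 44.1, 39.4 and 45.5 CPM in sham libraries (-0.19 ± 0.13, adjusted p = 0.402). Its sign turned under the offset for GC content and length, to 0.02. Under that offset the core median was 0.11 in NYKD against ICH brains, in place of -0.05, and Psmb7 was called higher (0.44, adjusted p = 0.0333). Log2 fold changes in this comparison had a Spearman correlation of 0.32 with transcript length across 18037 genes and of 0.317 across the 34 core genes, whose transcripts had a median of 1540.5 bases against 2812 for all. Psmc4 was the member with the smallest p among those lower in NYKD than in ICH brains, with -0.23 ± 0.12 (adjusted p = 0.261). The caps gave -0.11 ± 0.17 for Psme1, -0.28 ± 0.22 for Psme2, -0.10 ± 0.15 for Psme4 and 0.24 ± 0.13 for Psme3 in NYKD against ICH brains, with adjusted p of 0.291 or more.

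**Figure D3:**
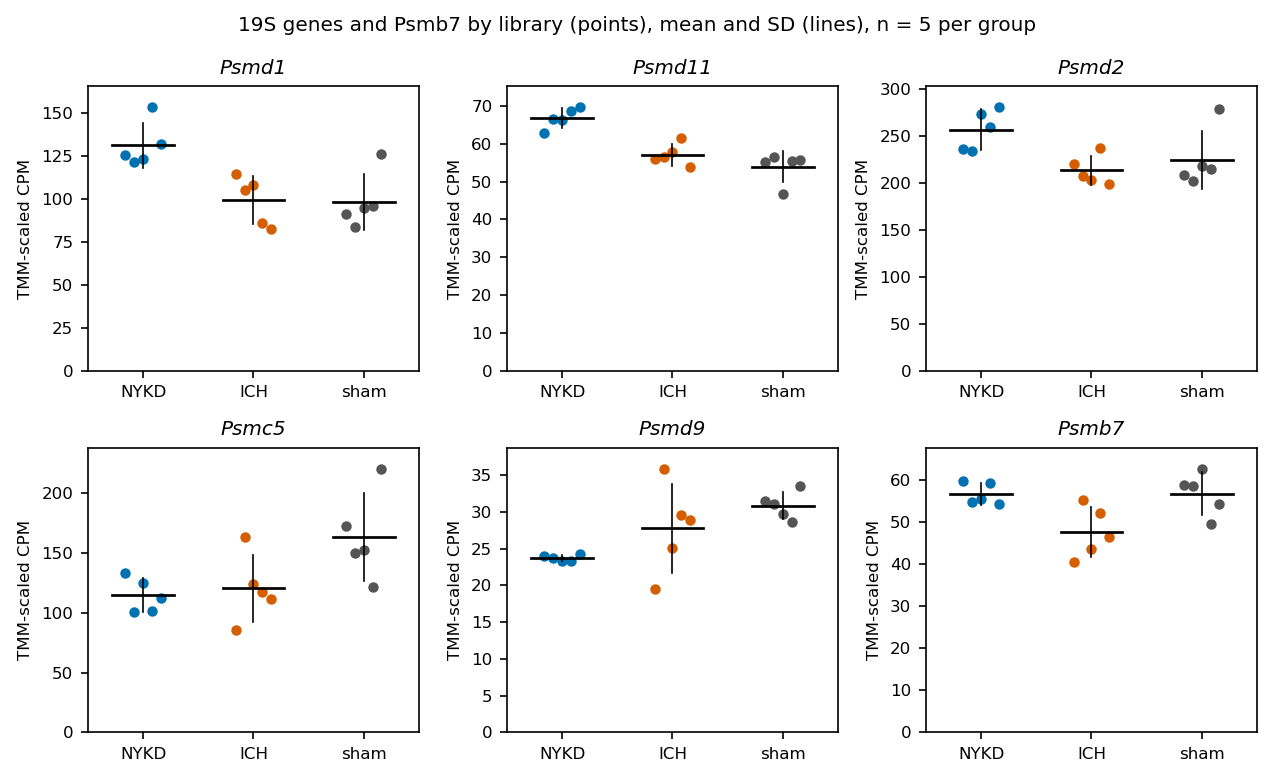
TMM-scaled CPM (y axis, from 0) of 5 genes of the 19S particle and its chaperones and of Psmb7 in each NYKD, ICH and sham library (points, 5 per group), with the mean (horizontal line) and SD (vertical line). The 5 NYKD libraries lie above all ICH libraries for Psmd1 and Psmd11, and below all sham libraries for Psmd9.

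The third comparison, NYKD against sham, sets treated haemorrhage beside no haemorrhage. It shares its NYKD and sham libraries with the other 2. Of the 38 members other than Psma8, 3 were called higher in NYKD than in sham brains (Psmd11, Psmd1 and Psme1) and 1 lower (Psmc5), against 23.4% of all genes (15.3% higher, 8.08% lower). Psmd11 rose by 0.31 ± 0.09 (adjusted p = 0.027), Psmd1 by 0.42 ± 0.14 (adjusted p = 0.0357) and Psme1 by 0.50 ± 0.17 (adjusted p = 0.0491). Psmc5 fell by 0.51 on the log2 scale, with an SE of 0.18 (adjusted p = 0.0452). Its 5 NYKD libraries ran over 101 to 134 CPM, and sham 4 with 122 CPM was the 1 sham library in that range. For Psma8, described above and left out of these counts, the difference was 2.04 ± 0.46. At an unadjusted p under 0.05, 4 of the 38 were higher and 3 lower, against 36.7% of all genes.

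Several members were not called in NYKD against sham brains. Psmd9, a chaperone of the 19S base, had 24.0, 23.7, 23.3, 23.3 and 24.2 CPM in NYKD, 19.5, 35.9, 25.0, 29.6 and 28.9 CPM in ICH, and 31.5, 31.0, 29.6, 28.5 and 33.5 CPM in sham libraries. The NYKD libraries were tightly grouped below all sham libraries, while the ICH libraries spread on both sides (-0.38 ± 0.14, adjusted p = 0.0551). No other member was lower in NYKD than in sham brains without overlap, against 4.84% of all genes. Psmd4, the ubiquitin receptor between base and lid, had 79.8, 67.0, 76.4, 67.3 and 79.4 CPM in NYKD, 59.5, 97.5, 78.7, 91.5 and 76.2 CPM in ICH, and 103, 89.9, 91.2, 75.1 and 104 CPM in sham libraries. Sham 4 lay inside the NYKD range, and the difference was -0.32 ± 0.14 (adjusted p = 0.0985). Psmb5 differed by -0.36 ± 0.17 (adjusted p = 0.15), Psme4 by 0.41 ± 0.15 (adjusted p = 0.0573) and Psme2 by 0.44 ± 0.23 (adjusted p = 0.167). Of the 38 members, Psmd11 was the 1 that was higher without overlap, against 13.9% of all genes.

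The Psmd11 call was lost without NYKD 2, NYKD 5 or sham 3 (adjusted p = 0.05 to 0.0818). The Psmd1 call was lost without NYKD 1, NYKD 3, NYKD 4, NYKD 5, sham 1, sham 2, sham 3 or sham 4 (0.051 to 0.0993), the Psme1 call without NYKD 1, NYKD 2, NYKD 3, NYKD 5, sham 2, sham 3, sham 4 or sham 5 (0.0706 to 0.132), and the Psmc5 call without NYKD 2, NYKD 3, NYKD 4, NYKD 5, sham 1, sham 2, sham 3 or sham 5 (0.0666 to 0.102). Under the GC content and length offset, which moved the median of all genes by -0.11, Psmd11 and Psmd1 were no longer called (0.15 with adjusted p = 0.233, and 0.24 with adjusted p = 0.183), and Psmc5, Psmd4 and Psmd9 were called lower, against 16.8% of all genes called lower under that offset. Markers of other cell types moved here too. All 5 macrophage markers, 4 of 5 microglia, all 6 reactive astrocyte, all 4 endothelial, all 4 dividing cell and 3 of 5 tested neutrophil markers were called higher in NYKD than in sham brains. Of the neuronal markers, 3 of 6 striatal projection neuron and 1 of 6 pan-neuronal markers were called lower. Their part in these calls was not tested.

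The core genes also varied between libraries of 1 group. Each core gene's log2 level was set against the mean of the 5 sham libraries, and the median was taken over the 34 genes. That median was -0.04, -0.15, -0.03, 0.12 and -0.04 in the NYKD libraries, -0.13, 0.22, 0.11, 0.01 and -0.20 in the ICH libraries, and 0.13, -0.01, -0.01, -0.23 and 0.12 in the sham libraries. ICH 2 was the highest of the 15 and sham 4 the lowest. Genes did not follow the median together. In ICH 1, Psmb6 stood at -0.92, Psmc5 at -0.90 and Psmb5 at -0.74, while Psma1 stood at 0.33 and Psma3 at 0.30. Within single libraries the deviation of the 34 genes had a Spearman correlation with GC content of -0.63 in ICH 1, -0.596 in ICH 3 and -0.682 in NYKD 4, but of 0.411 in sham 5. The part of base composition in the differences between groups was not tested beyond the offset described above.

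**Figure D4:**
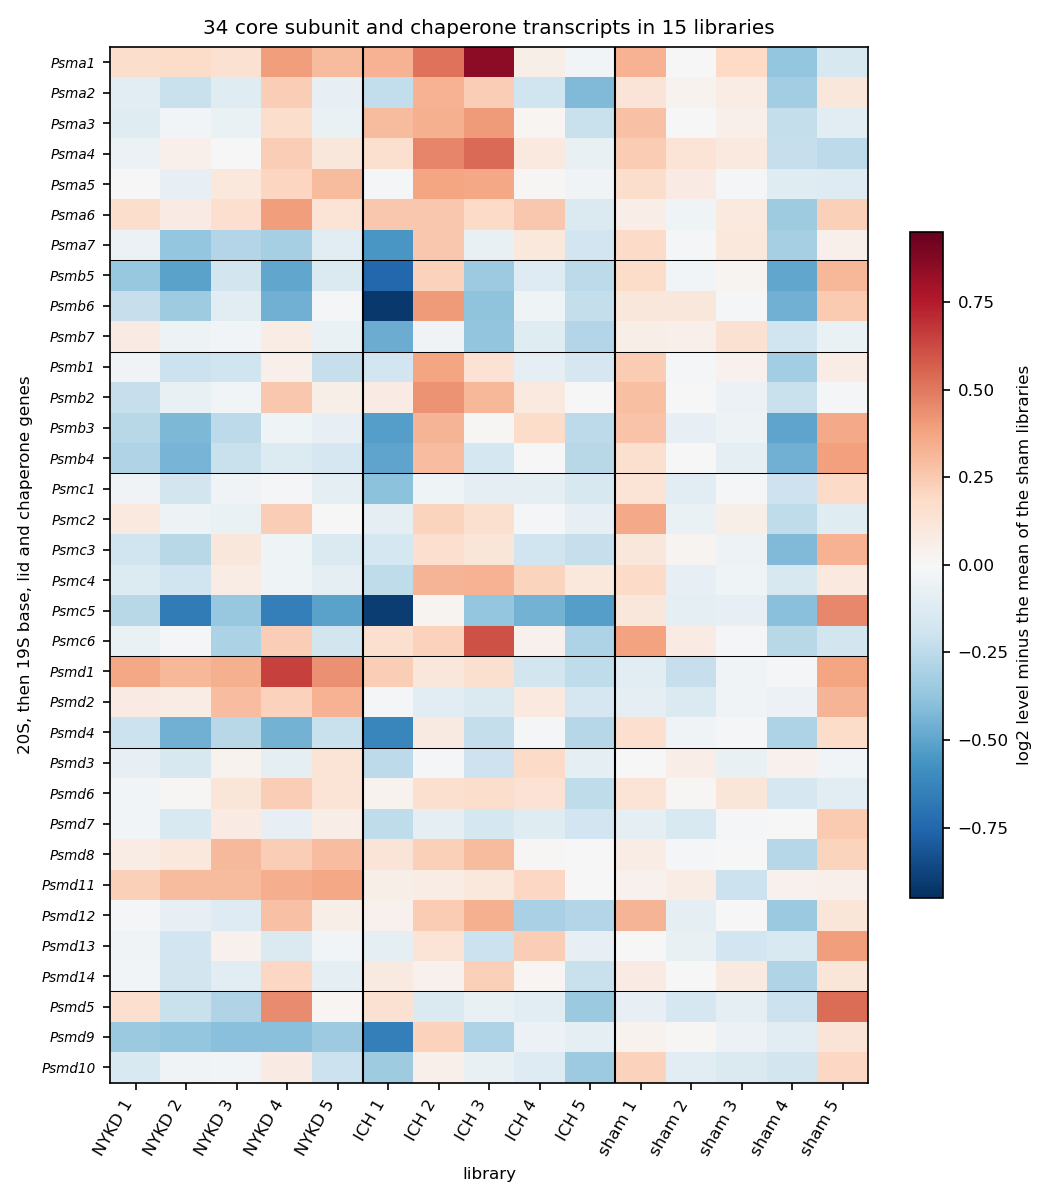
Log2 level of each of the 34 core subunit and chaperone genes (rows, by role) in each of the 15 libraries (columns), minus the mean of the 5 sham libraries; red is higher and blue lower. Columns vary within groups, as in ICH 1 and ICH 2, and Psmd1 and Psmd11 are the rows that are red in all 5 NYKD libraries with values above 0.2.

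The inducible catalytic subunits replace the constitutive ones in the same ring position. The log2 ratio of Psmb8 to Psmb5 averaged -1.91 ± 0.34 in NYKD, -2.21 ± 0.20 in ICH and -3.64 ± 0.53 in sham libraries (SD, n = 5 each). ICH exceeded sham by 1.42 and NYKD exceeded sham by 1.73, in both cases without overlap (2-sided exact permutation test, adjusted p = 0.0179 each over 9 tests). NYKD exceeded ICH by 0.30 (exact permutation, adjusted p = 0.184). For Psmb9 to Psmb6 the differences were 1.33 in ICH against sham and 1.45 in NYKD against sham libraries, again without overlap (exact permutation, adjusted p = 0.0179 each), and 0.12 in NYKD against ICH libraries (adjusted p = 0.667, exact permutation). Psmb10 to Psmb7 differed by 0.56 between ICH and sham, by -0.36 between NYKD and ICH and by 0.21 between NYKD and sham libraries (exact permutation, adjusted p = 0.0571, 0.0952 and 0.339). The smallest p this design allows is 0.00794. Psmb8 itself averaged 13.5 ± 4.7 CPM in NYKD, 11.7 ± 4.8 in ICH and 4.75 ± 1.29 in sham libraries, and was called higher in ICH and in NYKD than in sham brains (adjusted p = 0.00604 and 0.00158).

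**Figure D5:**
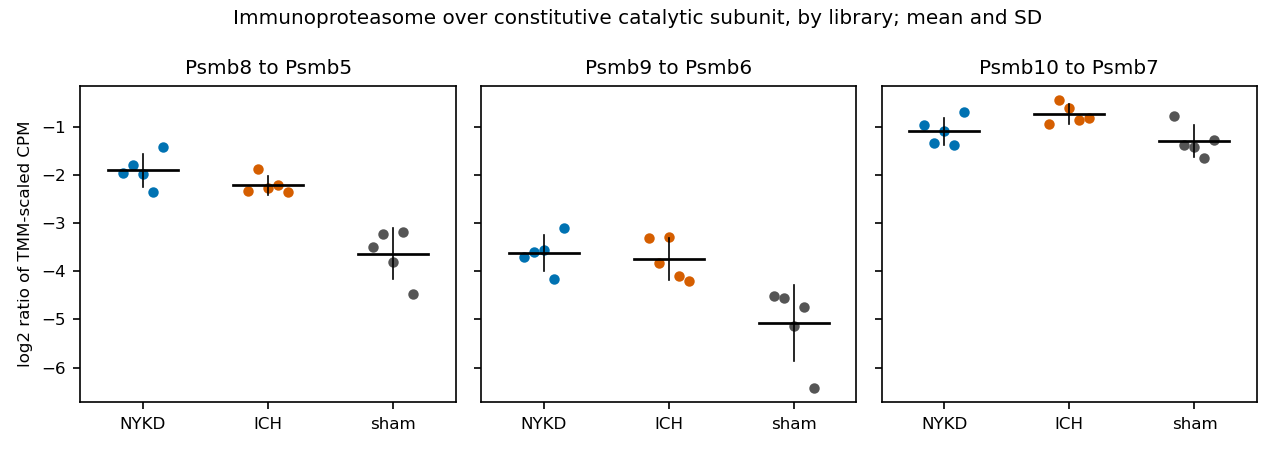
Log2 ratio of TMM-scaled CPM (y axis) of each immunoproteasome subunit to the constitutive subunit of its ring position, in each NYKD, ICH and sham library (points, 5 per group), with the mean (horizontal line) and SD (vertical line). The NYKD and ICH libraries lie above all sham libraries for Psmb8 to Psmb5 and for Psmb9 to Psmb6, and overlap with sham for Psmb10 to Psmb7.

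Genes that control, build or feed the proteasome were listed beside the members. Of the 7 genes for transcriptional control of proteasome genes, 2 were called higher in ICH than in sham brains (Nfe2l2 and Maff) and 1 lower (Nfe2l1). Maff had 5.24, 8.03, 5.60, 40.9 and 13.5 CPM in ICH and 4.62, 5.08, 3.65, 1.97 and 4.07 CPM in sham libraries. ICH 4 stood far above the others, and the Maff call was not tested without it. Nfe2l1, the factor known to induce proteasome genes when proteasome activity is low, had 328, 279, 365, 288 and 319 CPM in NYKD, 210.4, 264, 190.2, 254 and 273 CPM in ICH, and 301, 329, 315, 345 and 426 CPM in sham libraries. All ICH libraries lay below all NYKD and all sham libraries. The difference was -0.53 ± 0.14 in ICH against sham (adjusted p = 0.0169), 0.41 ± 0.14 in NYKD against ICH (adjusted p = 0.1) and -0.12 ± 0.14 in NYKD against sham brains (adjusted p = 0.571). Nfe2l2, the regulator of the antioxidant response, averaged 76.8 ± 15.3 CPM in NYKD, 70.8 ± 11.6 in ICH and 26.1 ± 3.7 in sham libraries, and was higher in ICH than in sham brains by 1.44 ± 0.16 (adjusted p = 4.49e-05) and in NYKD than in sham brains by 1.56 ± 0.16 (adjusted p = 1e-05). Ddi2, the protease that activates Nfe2l1, was called higher in NYKD than in sham brains (0.44 ± 0.11, adjusted p = 0.0105).

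Among the proteasome-bound receptors, deubiquitinases and shuttles, Ubqln4, a shuttle that carries ubiquitinated proteins to the proteasome, was called lower in ICH than in sham brains (-0.68 ± 0.16, adjusted p = 0.00751). Ubqln4 was also lower in NYKD than in sham brains (-0.60 ± 0.16, adjusted p = 0.0122). None of the 6 tested assembly factors and inhibitor genes outside the member rule was called in any comparison by edgeR, and none had an unadjusted p under 0.05. Among the 9 tested genes for ubiquitin supply and unfolding, none was called in ICH against sham brains, and in NYKD against sham brains the unfoldase gene Vcp and its cofactor Nploc4 were called higher (0.37 ± 0.13 and 0.34 ± 0.12, adjusted p = 0.0473 and 0.0482). In NYKD against ICH brains none of the genes on these 4 lists was called by edgeR, and 8 had an unadjusted p under 0.05. The lists held 7, 13, 6 and 9 tested genes, and 23.2% of all tested genes had such a p in this comparison. The 8 are therefore near the background share.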

How the data were processed

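Poly-A RNA from 15 libraries was sequenced, 5 per group. The authors deposited raw read counts per gene. HISAT2 2.0.5, edgeR 3.22.5 and build mm10 are named, without roles, in the submitters' processing notes. The sources used here name no counting program, annotation or strand setting. Symbols, positions and lengths came from GENCODE M21 (GRCm38), and promoter windows from RefSeq (GRCm38.p6). Counts were tested with edgeR 4.0.16 in R 4.3.3 (filterByExpr, TMM scaling, quasi-likelihood F-test), with all 15 libraries in 1 fit without covariates and Benjamini-Hochberg adjustment over 18052 genes. Standard errors were derived from the F statistic and are approximate. Ratios, with 0.5 CPM added, were compared by 2-sided exact permutation tests in SciPy 1.17.1. DESeq2 1.42.0 and limma-voom 3.58.1, other scalings, filters and offsets, and each library left out in turn were alternatives. No 2 libraries of the same group held the same counts within sampling noise, and pairs across groups were not checked. The design gives 5 mice per group. Per-library values are given for 9 fixed members and for up to 4 with the smallest p in each direction, and others by role. The members and lists were chosen with earlier results of these data known. The test was checked on simulated data. A result on the listed pathway genes is not reported here.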

Additional observations from a re-analysis of the deposited data

Results flagged for a closer look

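In 10 groups of 5 libraries, 7.94% of those checked, 1 library stood far from the other 4, where chance alone gives about 1 in 20 groups. Levels are TMM-scaled CPM. Sham 5 was the highest sham library for 4 genes of the 19S particle and its chaperones. It had 126.4 for Psmd1 (other sham libraries 83.92 to 96.23), 279.6 for Psmd2 (202.8 to 218.7), 105.0 for Psmd13 (70.44 to 79.48) and 76.91 for Psmd5 (46.18 to 50.38). Sham 3 was the lowest sham library for Psmd11, with 46.62 against 55.25 to 56.61 in the others. NYKD 4 was the highest NYKD library for the alpha subunits Psma2, with 88.73 against 64.94 to 71.37, and Psma6, with 108.5 against 86.9 to 92.27. Sham 4 was the lowest sham library for Psma2, with 59.66 against 77.29 to 81.88. ICH 5 was the lowest ICH library for Psma6, with 74.83 against 93.41 to 98.54. The log2 ratio of Psmb8 to Psmb5 was highest in ICH 2, with -1.87 against -2.35 to -2.22 in the other ICH libraries.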

How the results depend on the processing

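The counts here include Psma8, and percentages in brackets give the share of all genes called in the same direction. In both comparisons against sham, every count of 1 called higher is Psma8 alone, which is a description as stated above. In ICH against sham brains the number of members called higher was 4 (12.4%). It was 2 without the filter on low counts (5.23%), 0 with the ICH and sham libraries fitted alone (9.05%) and 2 with a replicate block (9.43%). With the block and the GC content and length offset it was 2 (9.05%), and at an adjusted p under 0.01 it was 1 (7.06%). With each library left out in turn it ran over 1 to 4 (8.83% to 12.7%). The number called lower was 0 (4.58%). It was 2 with DESeq2 (8.62%), 7 with the offset (13.3%), 4 with block and offset (9.92%), and 0 to 1 with libraries left out (2.71% to 5.16%). In NYKD against ICH brains 0 were called higher (1.19%), against 1 with DESeq2 (4.48%) and 1 with the offset (0.875%). In NYKD against sham brains 4 were called higher (15.3%), against 1 without the filter (6.95%), 1 with the block (13.3%) and 2 with the offset (13.3%). The number was 2 with block and offset (12.2%), 1 at an adjusted p under 0.01 (9.78%), and 1 to 4 with libraries left out (11.6% to 16.8%). The number called lower was 1 (8.08%). It was 2 with RLE size factors (9.11%), with a minimum of 1 CPM in 5 libraries (9.21%) and with DESeq2 (12.1%). It was also 2 with the 2 groups alone (10.9%) and with block and offset (12.4%), and 3 with the offset (16.8%). It was 0 with library totals (7.5%), without the filter (2.55%), with limma-voom (7.06%), with the block (4.83%) and at an adjusted p under 0.01 (1.89%). With libraries left out it was 0 to 1 (3.69% to 10.9%). The members' median log2 fold change was -0.23 with the offset and -0.23 with block and offset in ICH against sham, and 0.11 and 0.11 in NYKD against ICH brains. With libraries left out it ran over -0.06 to 0.06 in ICH against sham, -0.09 to 0.03 in NYKD against ICH and -0.06 to 0.01 in NYKD against sham brains. The log2 fold change of Psmb2 turned to 0.0186 with the offset and 0.0124 with block and offset in NYKD against ICH brains. With libraries left out, the ratio of Psmb9 to Psmb6 in NYKD against ICH ran over -0.0112 to 0.25, turning without NYKD 5. The ratio of Psmb10 to Psmb7 passed the threshold without NYKD 5 in NYKD against ICH (-0.46, exact permutation, adjusted p = 0.0286, range -0.46 to -0.29) and without sham 1 in ICH against sham (0.69, adjusted p = 0.0286 by the exact permutation test, range 0.47 to 0.69). No pairing of samples by replicate number is given in the labels. Same-numbered deviations correlated at -0.336 to 0.277, and 2 of 15 were best with their own number. Such correlations come without a test and cannot exclude a batch shared by number. The cause of these changes was not tested. In simulated ICH against sham counts, 2 of 100 genes changed by 0.5 on the log2 scale were called and 42 of 100 changed by 1. These genes were drawn from tested genes above a count minimum, and no other gene was changed. Over all tested genes the median within-group SD of the log2 level was 0.349, against 0.193 over the core genes. In the real data 17.0% of genes were called, and the Benjamini-Hochberg adjustment is stricter where few genes differ. These simulated shares are therefore not the chance of a call in the real data.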

Other observations

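Psme2b, the near copy of Psme2, had 10.7, 14.4, 14.9, 11.9 and 19.9 TMM-scaled CPM in NYKD, 7.35, 18.4, 15.2, 10.6 and 11.3 in ICH, and 12.0, 9.88, 8.65, 7.37 and 5.29 in sham libraries. The groups overlapped, and Psme2b was not called in edgeR's test (0.54 ± 0.26 in ICH against sham, adjusted p = 0.166; 0.73 ± 0.26 in NYKD against sham, adjusted p = 0.0505). Besides Psmb7, exons of Psme1 share 14 bases with Emc9 on the opposite strand, which averaged 282.9 counts per library against 629.3 for Psme1. Of other opposite-strand overlaps with protein-coding genes, Psmd1 shares 252 bases with Htr2b, Psmd13 342 with Sirt3 and Psmc3 215 with Slc39a13. These 3 partners averaged 79.9, 449.3 and 462.1 counts per library, against 1781.3, 1279.8 and 1960.2 for the members.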
